A study of Homo sapiens with 6 samples.

Results

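Transcription of 10 genes of fatty acid and triglyceride synthesis was followed by Bru-seq, which labels and sequences the RNA that cells are making during a short pulse of bromouridine. The genes were SREBF1, SCD, FASN, ACACA, ACLY, ELOVL6, FADS1, FADS2, LPIN1 and ACSL3. They were picked by name, with the measured fold changes of these same cultures in view, and each was read from its sense-strand row among 22984 sense rows in all. Their levels and fold changes are therefore given as a description, with no test.

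HCT116, an established human colorectal carcinoma line, was labelled for 0.5 h in 6 cultures that gave 1 library each. Both DMSO cultures received the vehicle at 0.01% for 4 h, 1 culture received siRNA against GSTO1 (siGSTO1) at 10 nM for 24 h, and C1-27, a covalent inhibitor of the GSTO1 enzyme, was given at 1 μM for 4 h and, in another culture, for 24 h. The inactive analogue C1-14 was given at 10 μM for 4 h. All cultures were of the same line and carried no other stated genetic change. No 24 h DMSO culture and no culture with a non-targeting siRNA was analysed here, so time in culture, transfection and treatment cannot be told apart in the 24 h libraries. Each treatment is 1 library, and the spread between replicates is known only from the DMSO pair.

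Fatty acids are built in the cytosol from acetyl-CoA, which ACLY releases from citrate, ACACA carboxylates to malonyl-CoA and FASN condenses into palmitate. ELOVL6 lengthens the chain, SCD introduces the first double bond, FADS1 and FADS2 desaturate polyunsaturated chains, ACSL3 couples fatty acids to coenzyme A, and LPIN1 makes the diacylglycerol from which triglycerides are formed. SREBF1 encodes SREBP-1, a membrane-bound transcription factor that is cleaved when sterols or unsaturated fatty acids are scarce and that drives many of these genes. Tumour lines, colorectal ones included, commonly make their own fatty acids in this way.

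To show the control regions of genes that stood high in the 24 h libraries beside that of one that stood close to DMSO, the 250 bases before an annotated start are printed for SCD, FADS1, LPIN1 and ACLY. Capitals mark CCAAT, the box of the factor NF-Y, and GGGCGG, the GC box of Sp1, each on either strand. The sequences are those of RefSeq on GRCh38.p14, and run 5′ to 3′ on the strand of the gene. SCD lies at chr10:100346983-100347232 on the plus strand, FADS1 at chr11:61817004-61817253 on the minus strand, LPIN1 at chr2:11746382-11746631 on the plus strand and ACLY at chr17:41919023-41919272 on the minus strand. The LPIN1 sequence is 1 of 3 annotated starts and the ACLY sequence 1 of 2.
SCD: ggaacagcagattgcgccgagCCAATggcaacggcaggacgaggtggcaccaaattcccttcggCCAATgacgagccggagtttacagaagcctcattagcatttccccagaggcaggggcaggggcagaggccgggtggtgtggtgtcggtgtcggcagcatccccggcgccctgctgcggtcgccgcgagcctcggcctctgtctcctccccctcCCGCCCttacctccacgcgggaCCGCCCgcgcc
FADS1: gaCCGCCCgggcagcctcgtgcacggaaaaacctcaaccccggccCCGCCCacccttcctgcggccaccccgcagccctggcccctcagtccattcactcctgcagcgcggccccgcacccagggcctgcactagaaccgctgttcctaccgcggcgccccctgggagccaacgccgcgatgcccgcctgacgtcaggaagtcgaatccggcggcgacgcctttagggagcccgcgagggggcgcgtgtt
LPIN1: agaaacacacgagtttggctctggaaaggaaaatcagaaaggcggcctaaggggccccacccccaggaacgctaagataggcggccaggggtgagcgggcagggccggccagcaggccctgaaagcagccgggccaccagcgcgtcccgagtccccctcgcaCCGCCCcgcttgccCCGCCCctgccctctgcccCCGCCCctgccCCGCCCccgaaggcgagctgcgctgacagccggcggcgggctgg
ACLY: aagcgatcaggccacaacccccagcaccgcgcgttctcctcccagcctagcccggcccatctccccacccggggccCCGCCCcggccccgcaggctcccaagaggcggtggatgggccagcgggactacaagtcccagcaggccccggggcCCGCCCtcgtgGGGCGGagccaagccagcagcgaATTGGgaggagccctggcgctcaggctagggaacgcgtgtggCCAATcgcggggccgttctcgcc

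SCD and ACLY each held 2 CCAAT boxes, with 38 bases between them in SCD and 37 in ACLY, whereas FADS1 and LPIN1 held none here. Every printed sequence held a GC box, with 2 in SCD, 2 in FADS1, 4 in LPIN1 and 3 in ACLY, and no match overlapped another. Over all annotated starts of the 9 members with an entry, GGGCGG was found in 9 of 9 against 46.2% of 27305 genes. FASN had no entry. An annotated start need not be the start of the measured gene row, and the windows of FADS2 lie within FADS1, away from the measured FADS2 start. The printed windows were 68% G and C in SCD, 72.4% in FADS1 and LPIN1 and 73.6% in ACLY. All windows of the members ranged from 43.6% to 81.6%. The median over all genes' windows was 58%, and the motif shares were not adjusted for this content. CCAAT was found in 4 of 9, namely SCD, ACACA, ACLY and ACSL3, against 37.0% of genes. TCACNCCAC, a strict spelling of the sterol regulatory element to which SREBP binds, was found in 0 of 9 against 1.09% of genes, and the E-box CACGTG in 0 of 9 against 7.73%. All 4 motifs were searched on both strands, and genes with several starts had more than 1 window to hold them. These matches are spellings in a window of 250 bases and describe no binding. The boxes of SCD both read CCAAT on the strand of the gene, whereas those of ACLY read ATTGG and CCAAT, so the pairs differed in orientation. Whether the boxes bear on the levels given below was not tested.

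Each library held between 18112861 and 36841146 reads on the sense strand of genes, and DMSO culture 1 was the shallowest. The cultures held the epithelial genes EPCAM, KRT8, KRT18 and KRT19 in all 6 libraries, with a summed level of 14.5 to 32.7 RPKM (reads scaled to the length of the gene and to the mapped reads of the library) over 8 colorectal epithelial markers, but CDX1 was at 0 and VIL1 below 0.1 RPKM throughout. Markers of leukocytes, fibroblasts, endothelium, adipocytes and hepatocytes summed to at most 0.570 RPKM per list. Among the lipid-making cell types, 3 of 4 adipocyte markers and all 3 hepatocyte markers stayed below 0.1 RPKM in every library, and FABP4 was at 0. GSTO1 itself stood at 3.51 and 3.72 RPKM in DMSO, 2.70 in siGSTO1, 3.78 and 4.21 in C1-27 at 4 h and 24 h and 3.82 in C1-14. An siRNA acts on mature RNA, so its nascent level does not check the knockdown, and the difference in siGSTO1 did not pass the test of edgeR (log2 fold change -0.53, SE 0.27, adjusted p = 0.330).

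In siGSTO1, 9 of the 10 genes stood above both DMSO cultures and none below. Relative to the DMSO mean, 7 were at 1.4-fold or more. Those 7 were SCD, FADS1, LPIN1, SREBF1, FASN, ACSL3 and ELOVL6. The study also used 1.4-fold, but does not say that its control was the mean of both DMSO cultures. For the genes named here, its printed siGSTO1 folds keep a near-constant proportion to those against DMSO culture 1. Its printed folds for C1-27 at 24 h do so to those against culture 2. With C1-27 at 24 h, 7 genes stood above both DMSO cultures and 4 were past 1.4-fold, which were FADS1, SCD, LPIN1 and ACSL3. C1-27 at 4 h left all 10 within 1.4-fold, with 2 above both DMSO cultures and 3 below both. C1-14 at 4 h had 3 past 1.4-fold, which were FASN, FADS1 and SCD. Set against DMSO culture 1 alone, 5 genes were past 1.4-fold in siGSTO1 and 5 with C1-27 at 24 h. Against culture 2 alone, 8 and 6 were. With the control that the study's printed folds follow, the counts are thus 5 in siGSTO1 and 6 with C1-27 at 24 h. No gene was 1.4-fold or more below the DMSO mean in any treatment.

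The background for the counts against the DMSO mean was taken over genes longer than 300 bp. Their mean RPKM of treated and DMSO libraries was above 0.5. Among them, 10.5% were at 1.4-fold or more above DMSO in siGSTO1, 0.457% with C1-27 at 4 h, 3.23% with C1-27 at 24 h and 3.71% with C1-14. Because the genes were chosen with these contrasts in view, nothing is read from the difference to the background. The expression filter was met by 9 of the 10 genes in siGSTO1 and with C1-27 at 24 h, but by 7 with C1-27 at 4 h and with C1-14. With C1-14, 2 of those 7 were past 1.4-fold, FASN and SCD. FADS1 and LPIN1 met it only in both 24 h comparisons, through their higher level there, and LPIN1 with C1-27 at 24 h only just, at a mean of 0.501 RPKM. FADS2 met it in none. The values nearest to the fold threshold were 1.42 for SCD with C1-14 and 1.43 for ELOVL6 in siGSTO1 on the inner side, and 1.34 for ACACA and 1.33 for SREBF1 with C1-27 at 24 h on the outer side.

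The median log2 fold change of the 10 genes was 0.74 in siGSTO1, -0.17 with C1-27 at 4 h, 0.42 with C1-27 at 24 h and -0.0055 with C1-14. Over all genes past the filter, the medians were -0.0007, -0.011, 0.030 and 0.0065 in the same order. The DMSO cultures were not alike for these genes. Their levels in culture 2 were lower than in culture 1 by a median of 0.32 on the log2 scale, and by 0.08 over the 7825 genes past the filter in DMSO. SREBF1 was 1.72-fold, FASN 1.57-fold and FADS2 1.42-fold higher in DMSO culture 1 than in culture 2, and no member was 1.4-fold higher in culture 2. Folds are therefore given against the DMSO mean and against each culture. Asked to exceed each DMSO culture alone by 1.4-fold, 5 genes remained in siGSTO1 (SCD, FADS1, LPIN1, SREBF1 and ACSL3), 4 with C1-27 at 24 h (SCD, FADS1, LPIN1 and ACSL3), none with C1-27 at 4 h and 1, FADS1, with C1-14. Of all genes past the filter, 6.49%, 1.89%, 0.143% and 1.98% did so in the same order. FADS1 did not meet that filter with C1-14, so 0 of the 7 genes that met it exceeded each culture there.

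**Figure D1:**
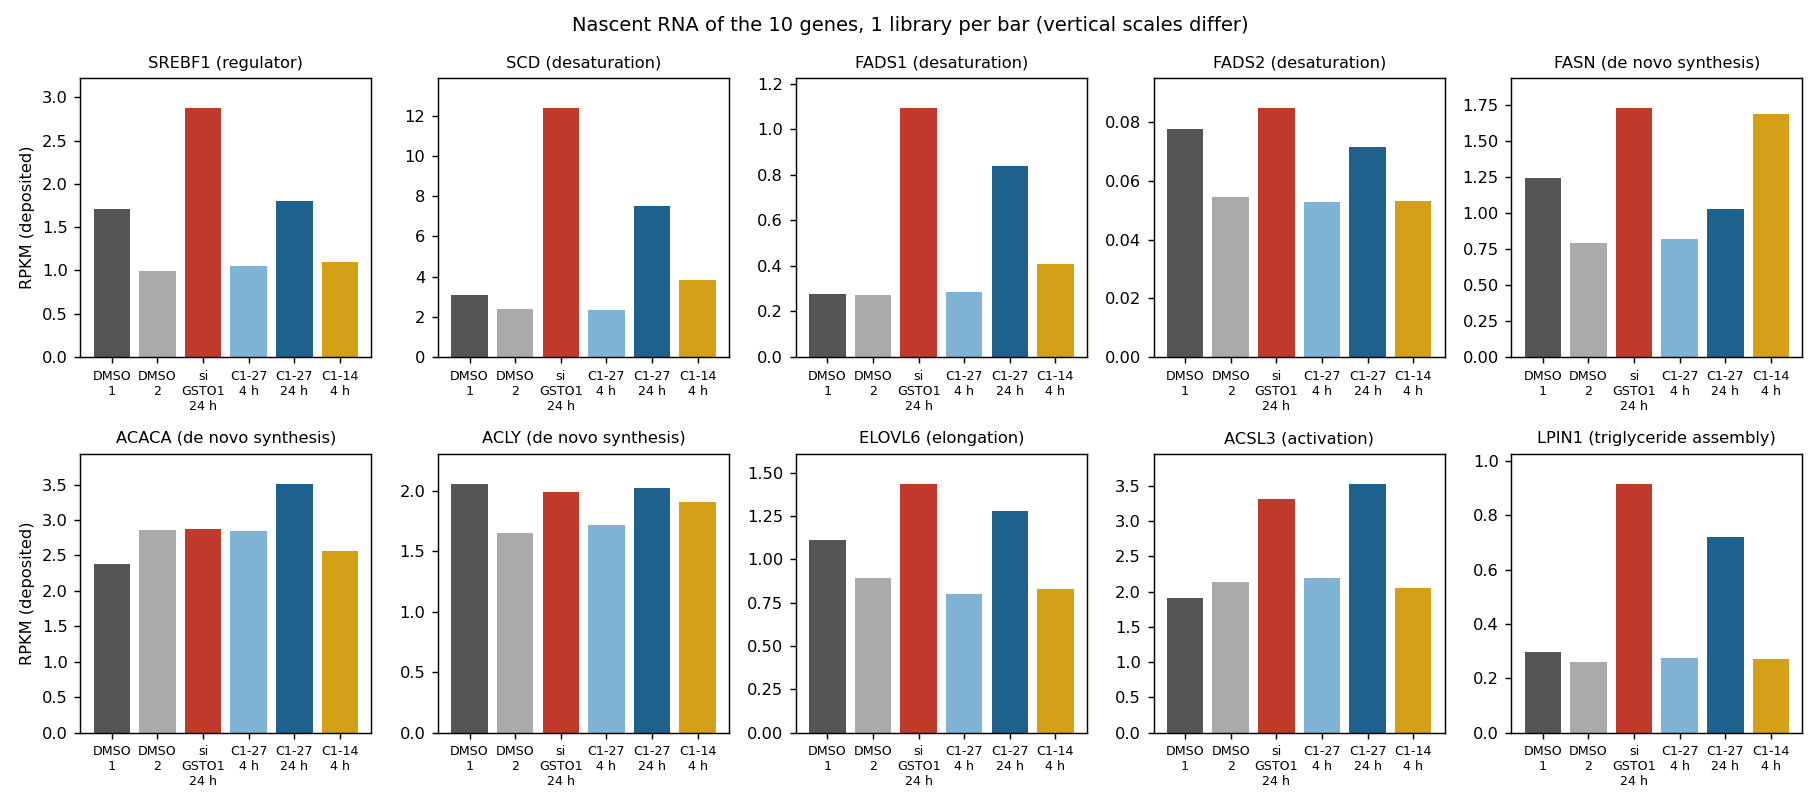
Deposited RPKM (vertical axis, linear from 0, scaled separately for each gene) of the 10 genes in the 6 libraries, 1 bar per library with no replicate except the DMSO pair. SCD, FADS1 and LPIN1 show their 2 tallest bars in siGSTO1 and C1-27 at 24 h, ACLY stays between 1.65 and 2.05 RPKM, and FADS2 stays below 0.1 RPKM.

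**Figure D2:**
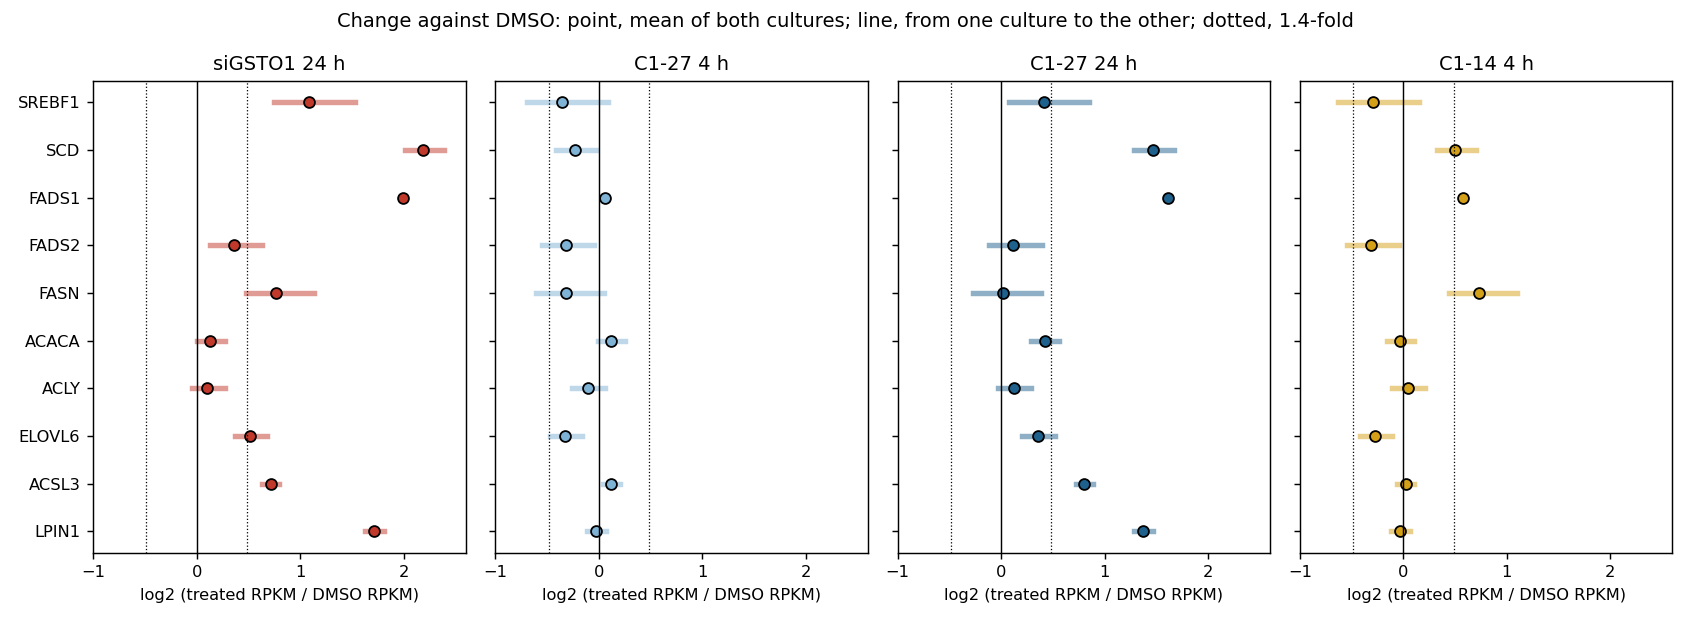
Log2 ratio of treated to DMSO RPKM (horizontal axis) for each gene in the 4 treatments. The point uses the mean of both DMSO cultures, the bar runs from the ratio to one culture to the ratio to the other, and dotted lines mark 1.4-fold in either direction. The bars of SCD, FADS1, LPIN1 and ACSL3 lie wholly past the upper line in both 24 h panels.

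SREBF1, the regulator (chromosome 17, 17714663 to 17740325 of hg19, minus strand), was at 1.71 and 0.994 RPKM in DMSO cultures 1 and 2, a mean of 1.35 ± 0.50 (SD, n = 2). It was at 2.87 in siGSTO1, 1.06 and 1.797 with C1-27 at 4 h and 24 h, and 1.10 with C1-14. Only the siGSTO1 library was past 1.4-fold against each DMSO culture, at 2.13-fold the DMSO mean, 1.68-fold culture 1 and 2.89-fold culture 2. The library of C1-27 at 24 h was 1.05-fold culture 1 and 1.81-fold culture 2, so that its position depends on the DMSO culture it is set against. Culture 2 is the one that the study's printed folds follow for this treatment. The study names SREBF1 among cholesterol metabolism genes altered by both C1-27 and the knockdown. The libraries of C1-27 at 4 h and C1-14 lay between both DMSO cultures. MIR33B, a microRNA, lies within SREBF1, and the end of RAI1 overlaps it on the opposite strand.

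SCD, the stearoyl-CoA desaturase that makes oleate (chromosome 10, 102106772 to 102124588, plus strand), had 3.07 and 2.36 RPKM in DMSO (mean 2.72 ± 0.50, SD, n = 2), 12.4 in siGSTO1, 2.31 and 7.50 with C1-27 at 4 h and 24 h, and 3.84 with C1-14. Both 24 h libraries stood far above the rest, by 4.56-fold and 2.76-fold of the DMSO mean, and the 4 h libraries were within 1.42-fold of it. Against single DMSO cultures, siGSTO1 was 4.03-fold and 5.24-fold, and C1-27 at 24 h was 2.44-fold and 3.17-fold. Counting error alone, from 5789 reads in siGSTO1 and the summed reads of both DMSO libraries, allows a ratio of 4.52 to 4.94 (exact 95% interval, Clopper-Pearson). This and the intervals that follow hold no variation between cultures. SCD had the highest RPKM of the 10 genes in DMSO culture 1, siGSTO1, C1-27 at 24 h and C1-14, and was second to ACACA in the other two libraries. Its share of the summed RPKM of the 10 genes was 21.7% and 19.2% in DMSO, 43.1% in siGSTO1 and 33.6% with C1-27 at 24 h.

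FADS1, the delta-5 desaturase of polyunsaturated fatty acids (chromosome 11, 61567097 to 61584529, minus strand), was low and even in DMSO, at 0.278 and 0.271 RPKM. It was at 1.09 in siGSTO1, 0.286 and 0.840 with C1-27 at 4 h and 24 h, and 0.411 with C1-14. The 24 h libraries were 3.98-fold and 3.06-fold the DMSO mean, C1-14 was 1.49-fold and C1-27 at 4 h was 1.04-fold. These values rest on few reads, 113 and 192 in DMSO and 498, 192, 671 and 247 in the treated libraries in the order given, and the counting interval of the C1-14 ratio was 1.26 to 1.78. MIR1908, a microRNA, lies within FADS1.

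The antisense strand of FADS1 carried more signal than the sense strand in DMSO, at 1.70 and 1.10 RPKM, and was at 1.01 in siGSTO1, 1.24 and 1.14 with C1-27 at 4 h and 24 h and 1.15 with C1-14. No treated library exceeded both DMSO cultures on this strand, and siGSTO1 was below both. FEN1, a DNA repair nuclease that is transcribed toward the end of FADS1 on the opposite strand and stops 2382 bp short of it, was at 4.87 and 4.46 RPKM in DMSO, 3.60 in siGSTO1, 4.77 and 4.56 with C1-27 and 5.69 with C1-14. The higher sense level of FADS1 at 24 h thus had no counterpart on its other strand. For the other 9 genes, antisense reads made up 0% to 2.89% of the reads on both strands.

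**Figure D3:**
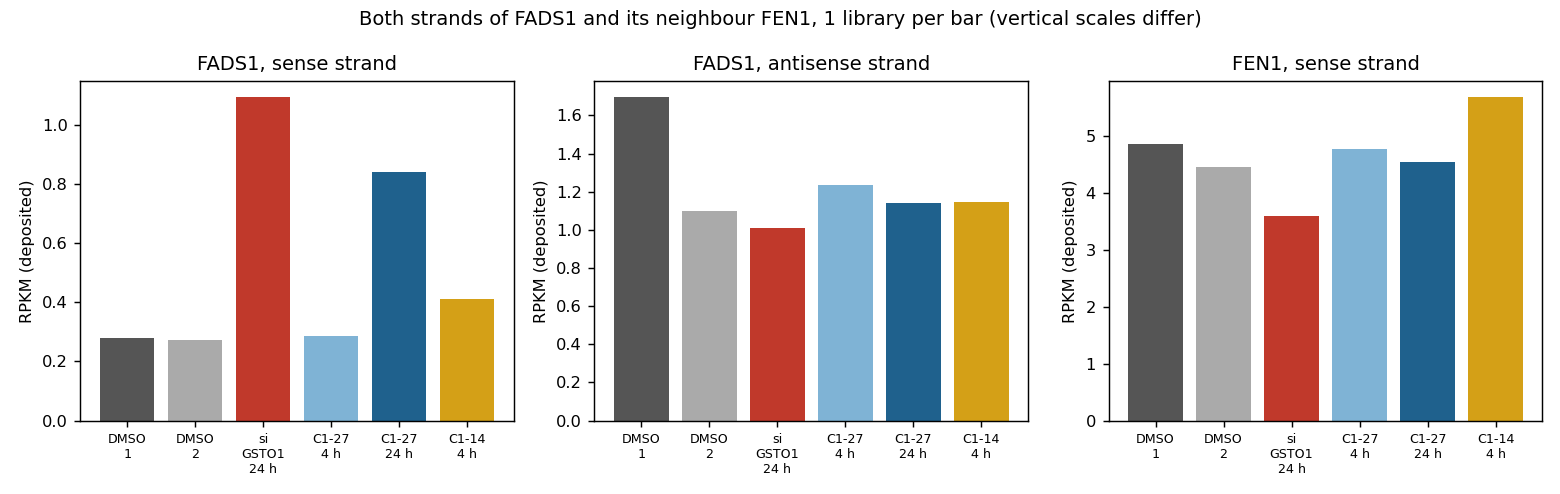
Deposited RPKM (vertical axis, linear from 0, scales differ) of the sense and antisense strands of FADS1 and of the sense strand of FEN1, 1 bar per library. The sense bars of siGSTO1 and C1-27 at 24 h, 1.09 and 0.840, stand above DMSO, while the antisense bars of the treated libraries lie between 1.01 and 1.24 against 1.70 and 1.10 in DMSO.

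FADS2, the delta-6 desaturase that lies head to head with FADS1 (chromosome 11, 61595713 to 61634825, plus strand, 11183 bp away), was the lowest of the 10 genes in every library. Its RPKM was 0.0776 and 0.0545 in DMSO, 0.0847 in siGSTO1, 0.0529 and 0.0717 with C1-27 at 4 h and 24 h, and 0.0531 with C1-14, from 71 to 129 reads each. Its level in siGSTO1 was 1.28-fold the DMSO mean, which is less than the 1.42-fold between the DMSO cultures. The counting interval of that ratio, 1.02 to 1.76 over the summed DMSO reads, does not reach the fold of FADS1 in the same library.

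FASN, the fatty acid synthase (chromosome 17, 80036214 to 80056106, minus strand), was at 1.24 and 0.787 RPKM in DMSO (mean 1.01 ± 0.32, SD, n = 2), 1.73 in siGSTO1, 0.816 and 1.03 with C1-27 at 4 h and 24 h, and 1.68 with C1-14. Its 2 highest libraries were siGSTO1 and C1-14, at 1.70-fold and 1.66-fold the DMSO mean, and both C1-27 libraries lay between the DMSO cultures. The same libraries were 1.39-fold and 1.36-fold DMSO culture 1 alone, but 2.19-fold and 2.14-fold DMSO culture 2. C1-14 was used at 10 μM and C1-27 at 1 μM, so the values of the analogues stand side by side and were not compared.

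ACACA, the acetyl-CoA carboxylase (chromosome 17, 35441927 to 35766902, minus strand), is the longest of the genes and had the most reads, 18105 to 52455 per library. It was at 2.38 and 2.86 RPKM in DMSO, 2.88 in siGSTO1, 2.85 and 3.51 with C1-27 at 4 h and 24 h, and 2.56 with C1-14. Only C1-27 at 24 h was separate from the other libraries, at 1.34-fold the DMSO mean, 1.47-fold culture 1 and 1.23-fold culture 2. ACLY, the ATP citrate lyase (chromosome 17, 40023179 to 40075272, minus strand), was at 2.05 and 1.65 RPKM in DMSO, 1.99 in siGSTO1, 1.72 and 2.02 with C1-27 and 1.91 with C1-14. All 4 treated libraries of ACLY lay between both DMSO cultures.

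ELOVL6, the elongase of palmitate (chromosome 4, 110970229 to 111119820, minus strand), was at 1.11 and 0.894 RPKM in DMSO, 1.44 in siGSTO1, 0.798 and 1.28 with C1-27 at 4 h and 24 h, and 0.828 with C1-14. Both 24 h libraries were above both DMSO cultures, at 1.43-fold and 1.28-fold the mean, and both 4 h treated libraries were below both, at 0.796-fold and 0.827-fold. The siGSTO1 level was 1.29-fold culture 1 and 1.61-fold culture 2.

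ACSL3, an acyl-CoA synthetase of the endoplasmic reticulum and lipid droplets (chromosome 2, 223725732 to 223808119, plus strand), had 1.91 and 2.14 RPKM in DMSO, 3.32 in siGSTO1, 2.20 and 3.53 with C1-27 at 4 h and 24 h, and 2.06 with C1-14. Its 24 h libraries were 1.64-fold and 1.74-fold the DMSO mean, and no fold against a single DMSO culture was below 1.55 in them. LPIN1, the phosphatidate phosphatase lipin 1 (chromosome 2, 11886740 to 11967533, plus strand), was at 0.297 and 0.262 RPKM in DMSO, 0.915 in siGSTO1, 0.275 and 0.722 with C1-27 at 4 h and 24 h, and 0.273 with C1-14. It was 3.28-fold the DMSO mean in siGSTO1 (3.08-fold and 3.50-fold the single cultures) and 2.59-fold with C1-27 at 24 h (2.43-fold and 2.76-fold), and the 4 h libraries lay between the DMSO cultures. LPIN1 was covered by 561 and 862 reads in DMSO and 1942 and 2684 in the 24 h libraries.

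The order of the 10 levels was much alike in both DMSO cultures. ACACA, SCD, ACSL3 and ACLY held the first 4 places, then came SREBF1, FASN and ELOVL6, and FADS1, LPIN1 and FADS2 were the lowest. In DMSO, the neighbours SCD and ACACA changed places between the cultures, as did ELOVL6 and FASN, FADS1 and LPIN1, and ACSL3 and ACLY, so these pairs did not differ beyond the spread. In siGSTO1, SCD at 12.4 RPKM stood far above the next gene, ACSL3 at 3.32. FADS1 and LPIN1 stayed eighth and ninth in siGSTO1 and with C1-27 at 24 h, below ELOVL6 and FASN, despite their higher folds.

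Between the C1-27 cultures, which shared the dose of 1 μM, all 10 genes were higher at 24 h than at 4 h. The ratio was 3.24 for SCD, 2.94 for FADS1, 2.63 for LPIN1, 1.70 for SREBF1, 1.61 for ELOVL6 and 1.60 for ACSL3, and between 1.17 and 1.36 for FADS2, FASN, ACACA and ACLY. Set directly against C1-27 at 24 h, siGSTO1 was higher by 1.68-fold for FASN, 1.65-fold for SCD and 1.60-fold for SREBF1. ACACA was at 0.820-fold, ACSL3 at 0.941-fold and ACLY at 0.986-fold in siGSTO1 relative to C1-27 at 24 h. These ratios compare 1 library with 1 library.

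To see how far the genes around these 10 moved, another 108 genes of lipid metabolism were listed by function. The lists were drawn up with earlier results of these data known, so nothing is read from the differences to all genes. Of the 108 genes, 107 were in the files and 90 had enough reads to be tested with edgeR's quasi-likelihood method over 14431 genes. In siGSTO1, 5 of the 90 rose and none fell (3 and 0 by DESeq2), against 3% of all genes tested that rose and 1.16% that fell. With C1-27 at 24 h, 2 of 90 rose and none fell (1 and 0 by DESeq2), against 0.159% and 0.118% of all genes. C1-27 at 4 h gave none in either direction (0 and 1 at an unadjusted p under 0.05, none by DESeq2), against 0.0139% and 0% of all genes. C1-14 also gave none (1 and 0 unadjusted, none by DESeq2), against 0.111% and 0.00693%. Each treatment is 1 library that the fit assumes to vary like the DMSO pair, which leaves 1 residual degree of freedom.

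INSIG1, which holds the SREBP precursor in the endoplasmic reticulum and is itself an SREBP target, rose most of the 90 in both 24 h libraries. It was at 0.688 and 0.610 RPKM in DMSO, 2.95 in siGSTO1, 0.566 and 2.03 with C1-27 at 4 h and 24 h and 0.624 with C1-14. Its edgeR log2 fold change was 2.08 (SE 0.34, adjusted p = 2.57e-07) in siGSTO1 and 1.60 (SE 0.34, adjusted p = 0.00154) with C1-27 at 24 h. IDH1, a cytosolic source of NADPH, rose in the same libraries, from 0.363 and 0.308 RPKM to 1.04 in siGSTO1 and 0.999 with C1-27 at 24 h (edgeR adjusted p = 0.00262 and 0.0182). DESeq2 did not call IDH1 with C1-27 at 24 h (adjusted p = 0.161). SREBF2, which encodes the SREBP of sterol synthesis, rose in siGSTO1 from 0.874 and 0.850 RPKM to 1.74 by edgeR (adjusted p = 0.00634) but not by DESeq2 (adjusted p = 0.102), and was at 1.55 with C1-27 at 24 h, where it did not pass in edgeR (adjusted p = 0.138).

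AGPAT4, an acyltransferase of glycerolipid assembly, rose in siGSTO1, from 0.146 and 0.191 RPKM to 0.421 (edgeR adjusted p = 0.000941). ACSL5, an acyl-CoA synthetase, rose in siGSTO1 from 0.810 and 0.566 RPKM to 1.41 by edgeR (adjusted p = 0.0170) but not by DESeq2 (adjusted p = 0.187). With C1-27 at 24 h it stood at 0.334, 0.485-fold the DMSO mean (edgeR adjusted p = 0.0516). The level of ACSL5 thus lay above both DMSO cultures in siGSTO1 and below both with C1-27 at 24 h, whereas that of ACSL3 lay above them in both. The difference between these libraries was not tested.

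By list, with no test between lists and the same limit on how the lists were chosen, the counts were as follows. Of the suppliers of acetyl-CoA, malonyl-CoA and NADPH, 1 of 10 tested rose in siGSTO1 and the same gene, IDH1, with C1-27 at 24 h, and the list's median log2 fold change was 0.68 and 0.56 against 0.015 and -0.0024 over all genes tested. Among 14 SREBP and other lipogenic regulators, 2 and 1 rose (medians 0.11 and -0.04), among 12 genes of fatty acid activation and uptake 1 and 0 (0.18 and -0.08), and among 17 of glycerolipid and triglyceride assembly 1 and 0 (0.33 and -0.06). None of 9 elongation genes, 2 other desaturases, 10 genes of lipid droplets and lipolysis or 16 of fatty acid oxidation passed in either library (none by DESeq2). In siGSTO1 their medians were -0.03, -0.15, 0.01 and 0.12, and 1 higher and 1 lower elongation gene and 1 higher oxidation gene reached an unadjusted p under 0.05. With C1-27 at 24 h the medians were -0.08, 0.35, -0.05 and -0.02, and 1 droplet gene reached it, on the lower side. SCD5, the other stearoyl-CoA desaturase, was at 0.808 and 0.877 RPKM in DMSO, 0.829 in siGSTO1 and 0.973 with C1-27 at 24 h.

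For comparison, 21 genes of sterol synthesis and uptake, which SREBP factors also drive, were tested in the same fit. FDFT1 and STARD4 were among those that rose in siGSTO1, and FDFT1, MSMO1 and STARD4 rose with C1-27 at 24 h, and the medians of the list were 0.76 and 0.74. FDFT1, squalene synthase, was 2.41-fold and 2.89-fold the DMSO mean (edgeR adjusted p = 0.000502 and 8.52e-06). STARD4, a sterol carrier, was 3.07-fold and 3.46-fold (edgeR adjusted p = 0.00199 and 0.00107), and MSMO1, a demethylating oxidase of sterol synthesis, was 2.35-fold with C1-27 at 24 h (edgeR adjusted p = 0.00847). DESeq2 did not call STARD4 in siGSTO1 (adjusted p = 0.0605) or with C1-27 at 24 h (adjusted p = 0.0778), nor MSMO1 with C1-27 at 24 h (adjusted p = 0.261). None of the 21 passed with C1-27 at 4 h or with C1-14 (none at an unadjusted p under 0.05, none by DESeq2), where the medians were 0.05 and 0.14.

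The difference between C1-27 at 24 h and 4 h was tested as a contrast of the same fit. Of the 90 other lipid genes, INSIG1 was higher at 24 h (log2 difference 1.76, SE 0.41, edgeR adjusted p = 0.0308), and none was lower. Of the sterol genes, FDFT1 was higher (1.27, SE 0.31, edgeR adjusted p = 0.0386). DESeq2 called neither, and each side of the contrast is 1 library. Over all genes tested, 0.0416% were higher and 0.0624% lower. At an unadjusted p under 0.05, 5 of the 90 were higher and 1 lower.

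**Figure D4:**
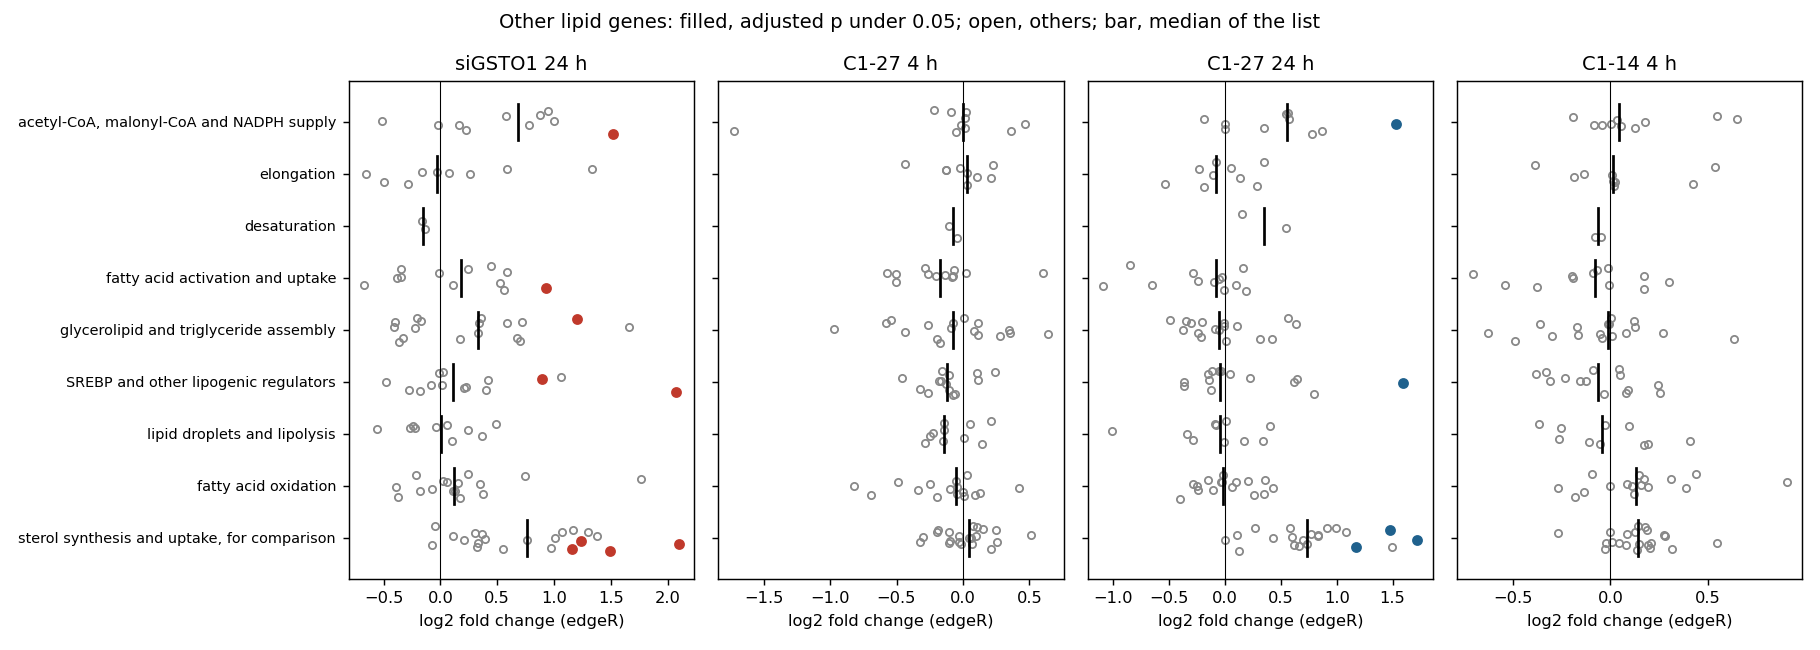
edgeR log2 fold change against DMSO (horizontal axis, range set separately for each panel) of the other lipid genes by list, 1 point per gene, with filled points for an adjusted p under 0.05 and a bar at the list median. Filled points appear in the 24 h panels only, 9 in siGSTO1 and 5 with C1-27 at 24 h, the sterol list included.

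Likeness to the 10 genes was measured as Pearson's r, over the 6 libraries, between a gene's log2 RPKM and the mean centred log2 RPKM of the members. The 10 genes of highest r among 7910 were CYP51A1, DCAF7, CEBPG, RBL2, GMPPA, FAM175A, GOLGB1, NUB1, SNX3 and ERCC5, with r from 0.997 to 0.989. CYP51A1, a demethylase of sterol synthesis, was at 2.35 and 2.14 RPKM in DMSO, 3.54 in siGSTO1, 2.06 and 3.13 with C1-27 and 2.35 with C1-14. The genes share the depth and scaling of each library, and r, over 6 points and picked from 7910 genes, carries no test here.

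Scaling bears on these values. With the libraries scaled by TMM instead of mapped reads, the median log2 fold change of all genes past the filter in siGSTO1 went from -0.0007 to -0.11. The split of genes past 1.4-fold went from 852 on the higher side and 527 on the lower side to 581 and 911. For C1-27 at 24 h it went from 256 and 276 to 195 and 357. Under TMM, the median of the 10 genes was 0.63 in siGSTO1 and 0.37 with C1-27 at 24 h, with 6 and 4 of them past 1.4-fold. ELOVL6 was the gene that no longer passed in siGSTO1.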

How the data were processed

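HCT116 cells were labelled with bromouridine for 0.5 h and the labelled RNA was sequenced, 1 library per culture. Per the labels, reads were handled with CASAVA 1.8.2, Bowtie 0.12.8, TopHat 1.4.1 and bedtools 2.16.2 on hg19. The role of each is not given in the sources used here. As deposited, an expected count gives the reads on 1 strand of a gene, exons and introns included, and 59.1% to 71.1% of the sense values per library were whole within 0.001. The signal column, also deposited, divides it by the counted bp, and from it mapped totals of 23388424 to 46017051 were recovered. The deposited RPKM values were scaled by the authors to gene length and these totals. The labels limit strand-specific preparation to certain samples without naming them, and 48 rows of ambiguous strand were left out.

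Folds are ratios of treated RPKM to the DMSO mean, with no pseudocount. Genes over 300 bp that reached 10 counts in 2 or more libraries, 14431 in all, had their counts rounded to whole numbers and were fitted with edgeR 4.0.16 (R 4.3.3), TMM and Benjamini-Hochberg adjustment over all genes, in 5 groups. The common dispersion was 0.0381 and the spread of single genes was drawn fully to the shared trend. The code was tested on simulated data with a smaller dispersion than the fitted one and with changes planted only in well-covered genes. That run checks the code and not the calls given here. DESeq2 1.42.0 was the alternative, besides other scalings, filters, a pseudocount of 0.1 RPKM and each DMSO culture alone. Other steps used pandas 2.3.3, numpy 2.4.6, scipy 1.17.1 and, for plots, matplotlib 3.10.9, under Python 3.11.15. The siGSTO1 culture was taken as 24 h, as labelled, although 1 sentence of the study's methods reads as 4 h.

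The members and the gene lists were chosen with earlier results of these data known. The named genes were all members, GSTO1, listed genes with an edgeR adjusted p under 0.05 that were also 1.4-fold from each DMSO culture in the same direction, and the 10 genes most like the members. Some genes that met this rule are not reported here. SCD5, the genes that neighbour or overlap members, and the marker genes were named outside this rule, after their values were seen. P-values measure only the spread between the DMSO cultures, which the labels do not call independent.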

Additional observations from a re-analysis of the deposited data

Results flagged for a closer look

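For 2 genes the edgeR contrast of C1-27 at 24 h and 4 h, both at 1 μM, passed the threshold. INSIG1, which retains the SREBP precursor, had an edgeR log2 difference of 1.761 (24 h minus 4 h, adjusted p = 0.0308), from 0.566 RPKM at 4 h to 2.03 at 24 h. FDFT1, squalene synthase, had an edgeR log2 difference of 1.265 (adjusted p = 0.0386), from 0.878 RPKM to 2.23. Each side is 1 library that the fit takes to vary like the DMSO pair, DESeq2 called neither, and whether the response differs beyond these libraries is not shown. The part of time in culture was not tested.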

How the results depend on the processing

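Setting a library against 1 DMSO culture in place of the mean necessarily moves its fold by less than the SD of the pair, but the median of the 10 genes with C1-27 at 4 h turned from -0.17 to 0.05 against culture 2 alone and was -0.33 against culture 1 alone. At a threshold of 2-fold, 4 genes passed in siGSTO1 (SREBF1, SCD, FADS1 and LPIN1) in place of 7, and 0 with C1-14 in place of 3. Leaving out 1 DMSO culture gave 5 to 8 genes in siGSTO1, 5 to 6 with C1-27 at 24 h and 0 with C1-27 at 4 h. For C1-14 it gave 1 to 3, with FADS1 alone left when DMSO culture 2 was left out. With a pseudocount of 0.1 RPKM, the log2 fold change in siGSTO1 was 1.67 for FADS1 and 1.42 for LPIN1, against 1.99 and 1.71 without.

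By DESeq2, 3 of the 90 other lipid genes rose in siGSTO1 (AGPAT4, IDH1 and INSIG1) and 1 with C1-27 at 24 h (INSIG1), and 0 differed between C1-27 at 24 h and 4 h. ACSL5, SREBF2 and STARD4 in siGSTO1 and IDH1, MSMO1 and STARD4 with C1-27 at 24 h kept their direction but not their call, with DESeq2 adjusted p from 0.0605 to 0.261. The cause was not tested. Over all genes, DESeq2 called 131 higher and 82 lower in siGSTO1 (edgeR 433 and 168), 10 and 8 with C1-27 at 24 h (23 and 17), 2 and 0 with C1-14 (16 and 1), 0 and 0 with C1-27 at 4 h (2 and 0) and 2 and 3 between the C1-27 times (6 and 9). With RLE size factors or no filter on low counts the number of other lipid genes called was unchanged in every comparison, and with only the treated and DMSO libraries in the fit it was 7 in siGSTO1. Without the RPKM filter, genes past 1.4-fold numbered 4874 higher and 2373 lower in siGSTO1, 1312 and 2745 with C1-27 at 4 h, 2306 and 2470 with C1-27 at 24 h, and 1586 and 2453 with C1-14. No paired analysis was run, because the labels do not say which DMSO culture belongs to which treatment. The study's printed folds follow culture 1 for siGSTO1 and culture 2 for C1-27 at 24 h, and the counts against each culture are given above. The edgeR tests could not be repeated without a DMSO culture, since 5 libraries in 5 groups leave no residual degree of freedom.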

Other observations

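LINC00263, a long noncoding RNA gene on the same strand as SCD that starts 8744 bp past its end (chromosome 10, 102133333 to 102148111 of hg19), was at 0.179 and 0.191 RPKM in DMSO, 0.773 in siGSTO1, 0.182 and 0.651 with C1-27 at 4 h and 24 h, and 0.217 with C1-14. Its folds over the DMSO mean were 4.18, 0.983, 3.52 and 1.17, beside 4.56, 0.851, 2.76 and 1.42 for SCD. Whether reads of SCD run on into LINC00263 was not tested. KLHL11, on the same strand 1549 bp from ACLY, was at 1.27 and 0.979 RPKM in DMSO and between 1.00 and 1.13 in the treated libraries, and C17orf78, which lies within ACACA on the opposite strand, was listed at 0 in 5 libraries and at 0.00173 RPKM with C1-14.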
